A study of Mus musculus with 18 samples.

Results

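Krüppel-like factors (KLFs) are transcription factors named after a segmentation gene of the fly, and 8 of their genes (Klf2, Klf3, Klf4, Klf6, Klf7, Klf10, Klf12 and Klf13) were followed here among the 38392 genes of the deposited table. They were chosen by gene symbol, and each was found once. RNA had been sequenced from 18 libraries of mouse CD4 T cells sorted from the small intestine, 3 libraries in each of 6 groups. The donor mice carried the alleles written as C57BL/6 TNa TNb RAG1-/- Foxp3GFP. These animals were derived by nuclear transfer from a peripherally induced regulatory T cell, so that their T cells share 1 receptor clone, cannot make other receptors without RAG1, and report Foxp3 with green fluorescent protein. CD4+ donor cells that lacked CD8α and the Foxp3 reporter were transferred into C57BL/6 TCRa-/- TCRb-/- hosts, which lack αβ T cells of their own, and were recovered after 6 weeks. Intraepithelial (IEL) cells and cells of the underlying lamina propria (LP) were collected separately. In each site, SP cells were CD4+CD8α-Foxp3-, DP cells were CD4+CD8α+, and TR cells were CD4+Foxp3+. All 6 groups thus share the donor genotype, the host genotype and the time since transfer. How many animals stood behind a library, and whether animals were pooled, is not given in the sources used here, so p-values measure only the spread between libraries.

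All KLFs bind DNA through zinc fingers at their C-terminal end that recognise CACCC and GC-rich boxes, while their N-terminal parts differ and recruit activators or repressors. In T cells the family is best known for KLF2, which maintains quiescence and switches on genes for exit from tissue, among them the sphingosine phosphate receptor gene S1pr1. Loss of KLF2 is a known feature of T cells that settle in tissue. KLF4 restrains division, KLF3 and KLF12 are repressors that bind CtBP corepressors, KLF6 is an early response gene, KLF10 is induced by TGF-β, and KLF13 activates the chemokine gene Ccl5 late after T-cell activation.

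The libraries held 5093955 to 8851347 reads, and levels below are normalised counts, that is reads multiplied by 1 factor per library. The sorted cells carried T-cell RNA: all 8 T-cell markers examined were detected in every group, and their summed level ran from 17320 to 23360. The IEL TR libraries resembled each other less (Pearson r across genes 0.8045 to 0.8727) than libraries within the other groups (0.9238 to 0.9438), and 3 repeat-derived genes took 16.18% of IEL TR library 1 against 1.72% to 9.94% elsewhere. Called values of KLF genes that use IEL TR library 1 are therefore also given without it. For other genes this was not done. Of the 8 KLF genes, 7 were among the 15472 genes with at least 10 normalised counts in at least 3 libraries and were tested. Klf12 was not. Adjusted p-values are from limma on log2(normalised count + 1) over all genes tested, a gene is called at an adjusted p under 0.05, differences are log2 values on that scale, ± after a log2 difference is its standard error, and ± after a level is the SD over 3 libraries. Statements that libraries are separate or do not overlap only describe the values. The share of all genes without overlap was not counted, and with 3 libraries per group separation can arise by chance.

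The start regions of Klf2, Klf4, Klf6 and Klf7 are printed because the first 3 were lower in the epithelium, Klf7 was not called by site, and these regions differ in the boxes that the family binds. Each is the 250 bases before the RefSeq start of the gene in GRCm38.p6, read 5′ to 3′ on the strand of the gene. The gene positions given below are from GENCODE M21, which can place the start elsewhere. The Klf7 region lies wholly inside the gene by those positions, and the Klf2 and Klf6 regions overlap its first bases. RefSeq start regions were given for 7 of the 8 genes. Capitals mark CACCC and CCGCCC on either strand (GGGTG and GGGCGG on the printed strand) and the MEF2 motif, which is CTA and TAG with any 4 bases between them.
Klf2 (chr8:72318812-72319061, plus strand): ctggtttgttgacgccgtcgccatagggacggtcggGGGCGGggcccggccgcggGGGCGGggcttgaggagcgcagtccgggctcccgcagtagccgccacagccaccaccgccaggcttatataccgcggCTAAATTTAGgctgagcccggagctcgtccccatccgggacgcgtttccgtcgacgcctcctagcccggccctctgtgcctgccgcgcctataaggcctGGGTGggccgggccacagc
Klf4 (chr4:55532476-55532725, minus strand): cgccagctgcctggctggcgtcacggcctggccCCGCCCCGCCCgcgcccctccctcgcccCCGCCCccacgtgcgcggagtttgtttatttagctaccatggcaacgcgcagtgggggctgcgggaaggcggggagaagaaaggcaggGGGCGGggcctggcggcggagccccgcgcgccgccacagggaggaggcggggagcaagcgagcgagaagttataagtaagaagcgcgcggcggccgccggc
Klf6 (chr13:5861239-5861488, plus strand): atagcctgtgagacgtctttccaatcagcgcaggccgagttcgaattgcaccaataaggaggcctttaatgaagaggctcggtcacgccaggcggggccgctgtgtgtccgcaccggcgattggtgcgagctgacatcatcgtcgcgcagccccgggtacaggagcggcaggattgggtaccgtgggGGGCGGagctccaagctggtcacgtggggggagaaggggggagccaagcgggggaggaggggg
Klf7 (chr1:64121390-64121639, minus strand): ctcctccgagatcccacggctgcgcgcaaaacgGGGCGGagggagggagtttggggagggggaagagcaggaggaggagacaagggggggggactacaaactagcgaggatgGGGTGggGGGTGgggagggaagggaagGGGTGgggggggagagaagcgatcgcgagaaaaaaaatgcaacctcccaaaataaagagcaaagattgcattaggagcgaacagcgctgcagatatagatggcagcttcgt
The Klf2 region held 2 CCGCCC boxes, 1 CACCC box and 1 MEF2 motif, which begins 118 bases before the start. MEF2 factors are known activators of Klf2. The Klf4 region held 4 CCGCCC boxes, of which the first 2 share a base, and no CACCC box. The Klf6 region held 1 CCGCCC box, and the Klf7 region 1 CCGCCC and 3 CACCC boxes. No CACCC box overlapped a CCGCCC box in these 4. The regions of Klf3 and Klf13, also lower in the epithelium but not printed, held 5 and 1 CACCC boxes and 6 and 3 CCGCCC boxes. Whether box number goes with the site difference was not tested. Of 32851 RefSeq start regions of the same length, 52% held CACCC, 32.7% held CCGCCC and 3.2% held the MEF2 motif. A search for the AP-1 motif TGANTCA (in 6.75% of regions), the cyclic AMP motif TGACGTCA (1.55%) and the FOXO motif GTAAACA (3.17%) on both strands found none in the 7 KLF regions. The 4 regions were rich in G and C, at 71.2%, 74%, 64.8% and 59.2% for Klf2, Klf4, Klf6 and Klf7, against a median of 52.4% over all regions. These matches describe letters and were not tied to binding.

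Klf6 and Klf13 were the most abundant members in every group per kilobase. Per kilobase of merged exon, the mean normalised count over the 18 libraries was 1204 for Klf6 and 715.6 for Klf13. These were 55.2% and 32.8% of the sum over the 8 genes. Klf4 followed at 93.5 per kilobase, then Klf2 at 65.7, Klf10 at 61.6, Klf7 at 23.7 and Klf3 at 17.3. Klf12 stood at 0.131. These means pool groups that differ, and the order was not the same in each. In IEL TR cells Klf13 (972.5 per kilobase) stood above Klf6 (837.6), and in IEL SP cells they were close (550.9 and 570.2). Klf2 stood above Klf4 in LP TR cells (206.8 and 87.4 per kilobase) and below it in the other 5 groups, for example in IEL SP cells (11.4 and 36.4). Merged exons count every annotated exon, so a gene expressed mainly from short transcripts is understated by this scale. The summed normalised count of the 8 genes ran from 6577 to 8221 in the SP and DP libraries of the epithelium and from 13400 to 16090 in those of the lamina propria, with no overlap. It ran from 11110 to 13760 in IEL TR and from 12160 to 15810 in LP TR. This sum is not scaled by length and is mostly Klf6 and Klf13, so it does not show the less abundant members.

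**Figure D1:**
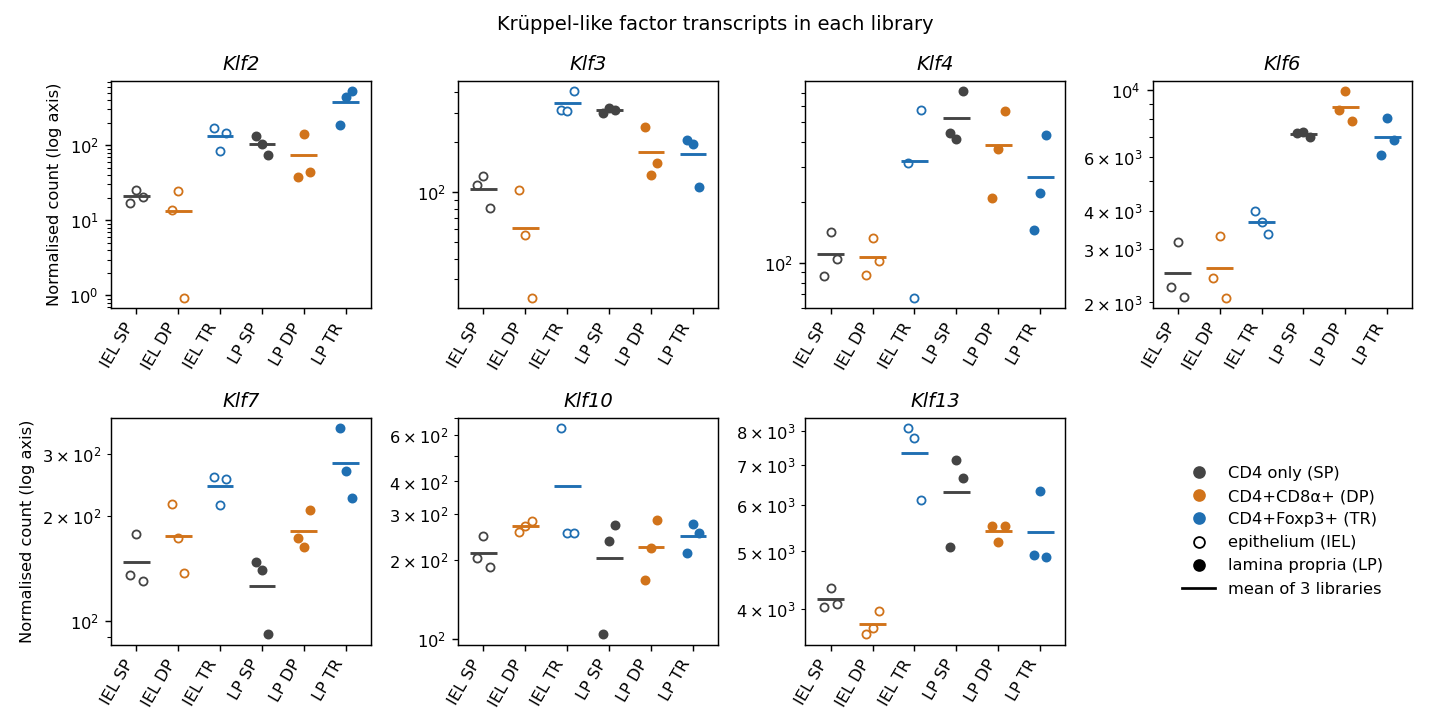
Normalised count of each of the 7 tested KLF genes (vertical axes, log scale, a range of its own for each gene) in the 6 groups. Each point is 1 library, open for the epithelium and filled for the lamina propria, and horizontal lines are group means. Klf6 sat between 2073 and 3318 in SP and DP libraries of the epithelium and between 7002 and 9877 in those of the lamina propria.

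The first comparison asked whether SP and DP cells of the epithelium differed from their counterparts in the lamina propria. Averaged over SP and DP, 5 of the 7 tested genes (Klf2, Klf3, Klf4, Klf6 and Klf13) were lower in the epithelium, and Klf7 and Klf10 were not called. Of all genes tested, 10.5% were called lower in this comparison and 21% in either direction. The median difference of the 7 genes was -1.64, against 0.04 over all genes. In bulk RNA, fewer cells that express a gene and less RNA per cell cannot be told apart.

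Klf6 (ENSMUSG00000000078, GRCm38 chromosome 13, 5861482 to 5870394, plus strand), whose promoter above held a lone GC box, had the highest mean of the set per kilobase over all libraries. Its normalised counts were 2251, 3169.7 and 2090.5 in the 3 IEL SP libraries and 2405, 3318 and 2073 in the IEL DP libraries. Those of the lamina propria were 7181, 7245 and 7002 in SP and 8608, 9877 and 7915 in DP cells. The lowest lamina propria library thus lay above the highest IEL library of these populations. Klf6 was 3.12-fold higher in the lamina propria on average over SP and DP (epithelium minus lamina propria -1.66 ± 0.12, adjusted p = 6.59e-07). By population the difference was -1.54 ± 0.18 in SP (adjusted p = 7.81e-05) and -1.78 ± 0.18 in DP cells (adjusted p = 2.49e-05). In TR cells it was -0.92 ± 0.13 and missed the threshold (adjusted p = 0.0573). The IEL TR libraries at 3981, 3685 and 3369 all lay below the LP TR libraries at 6102, 8083 and 6832. The order of the 6 group means was LP DP (8800), LP SP (7143), LP TR (7006), IEL TR (3678), IEL DP (2599) and IEL SP (2504). The neighbours LP SP and LP TR overlapped, as did IEL DP and IEL SP.

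Klf4 (ENSMUSG00000003032, chromosome 4, 55527143 to 55532466, minus strand) is known in T cells as a brake on the cell cycle. It stood at 86.1, 143 and 104 in IEL SP and at 87.6, 133 and 102 in IEL DP libraries. Lamina propria libraries reached 443, 410.5 and 710.5 in SP and 211, 369.5 and 569 in DP libraries. Every lamina propria library of these populations exceeded every IEL one. The averaged difference was -1.97 ± 0.29 (4.13-fold, adjusted p = 0.000278), with -2.21 ± 0.40 in SP (adjusted p = 0.00333) and -1.73 ± 0.40 in DP cells (adjusted p = 0.0163). IEL TR libraries were widely spread, at 315, 67.4 and 577, and overlapped LP TR at 146, 224 and 429.8. The TR difference of -0.06 had a 95% interval from -2.17 to 2.04 and so says little either way. Group means ran in the order LP SP (521.3), LP DP (383.2), IEL TR (319.8), LP TR (266.5), IEL SP (111.0) and IEL DP (107.7), and among neighbours the ranges of LP TR and IEL SP were the ones that did not overlap.

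Klf2 (ENSMUSG00000055148, chromosome 8, 72319033 to 72321656, plus strand), the quiescence and egress factor whose promoter above carries the MEF2 motif, was low in SP and DP cells of the epithelium. It had 17, 25.6 and 20.4 normalised counts in IEL SP libraries and 13.9, 24.8 and 0.93 in IEL DP libraries, the last of these from 1 read. Lamina propria values were 134, 103 and 73 in SP and 38.1, 143 and 44.3 in DP cells. Again the IEL and lamina propria libraries did not overlap. The averaged difference was -2.51 ± 0.55 (5.21-fold, adjusted p = 0.00554). In DP cells alone it was -2.81 ± 0.78 (adjusted p = 0.037). In SP cells alone it was -2.22 ± 0.78 and was not called by limma (adjusted p = 0.0928). It was called there by edgeR (adjusted p = 0.0486), by DESeq2 (0.00467) and by limma with a pseudocount of 4 (0.0454). Over all genes these called 1448, 2091 and 1565, against 1533 in the main fit.

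Klf3 (ENSMUSG00000029178, chromosome 5, 64803388 to 64832901, plus strand) encodes a repressor that competes with activating KLFs for the same boxes. IEL SP libraries held 110.2, 126 and 80.6 and IEL DP libraries 104, 55.4 and 23.2. Lamina propria SP cells held 301, 320.2 and 314, a narrow range, and DP cells 248, 127 and 151. The populations of the 2 sites were again separate. The averaged difference was -1.64 ± 0.31 (2.93-fold, adjusted p = 0.00213), with -1.58 ± 0.44 in SP (adjusted p = 0.0357) and -1.69 ± 0.44 in DP cells (adjusted p = 0.0267).

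Klf13 (ENSMUSG00000052040, chromosome 7, 63886351 to 63938915, minus strand) showed the smallest difference of the 5. IEL SP libraries stood at 4031, 4332 and 4083 and IEL DP libraries at 3620.3, 3714 and 3959. LP SP libraries stood at 5089.6, 7144 and 6666 and LP DP libraries at 5527, 5188 and 5526. All 6 IEL libraries of these populations were below all 6 from the lamina propria. The averaged difference was -0.56 ± 0.09 (1.48-fold, adjusted p = 0.000432), with -0.59 ± 0.12 in SP (adjusted p = 0.00662) and -0.52 ± 0.12 in DP cells (adjusted p = 0.0146).

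Counted within each population, 4 of 7 genes were called lower in IEL SP than LP SP, where 5.66% of all genes were, and 5 of 7 in IEL DP against LP DP, where 5.42% were. In TR cells 0 of 7 genes were called between the sites with limma (0.601% of all genes were called). There, 4 of the 7 had an unadjusted p under 0.05, as did 13.2% of all genes, namely Klf2 (-1.44), Klf3 (1.05), Klf6 (-0.92) and Klf13 (0.44). DESeq2 on the recovered reads called Klf2 (adjusted p = 0.0413), Klf3 (0.0486) and Klf6 (2.22e-06), with 929 of all genes called against 93 by limma. Without IEL TR library 1 the Klf6 difference was -0.98 (limma adjusted p = 0.0584). The 5 averaged calls held in every alternative setting tried, each left-out library included. The calls within 1 population were less stable. For Klf3 in SP cells the call was lost without any 1 of the 6 libraries (adjusted p 0.0599 to 0.124). In DP cells the Klf2 difference was -1.69 (adjusted p = 0.105) without IEL DP library 3, and its call was also lost without LP DP library 2 (0.141) or 3 (0.0601). The Klf3 call was lost without IEL DP library 2 (0.0586) or 3 (0.0938) or LP DP library 1 (0.102) or 3 (0.0544). The Klf4 call was lost without IEL DP library 1 (0.0579) or 3 (0.0544) or LP DP library 2 (0.0527) or 3 (0.0682). The Klf13 call was lost without IEL DP library 1 (0.0506).

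**Figure D2:**
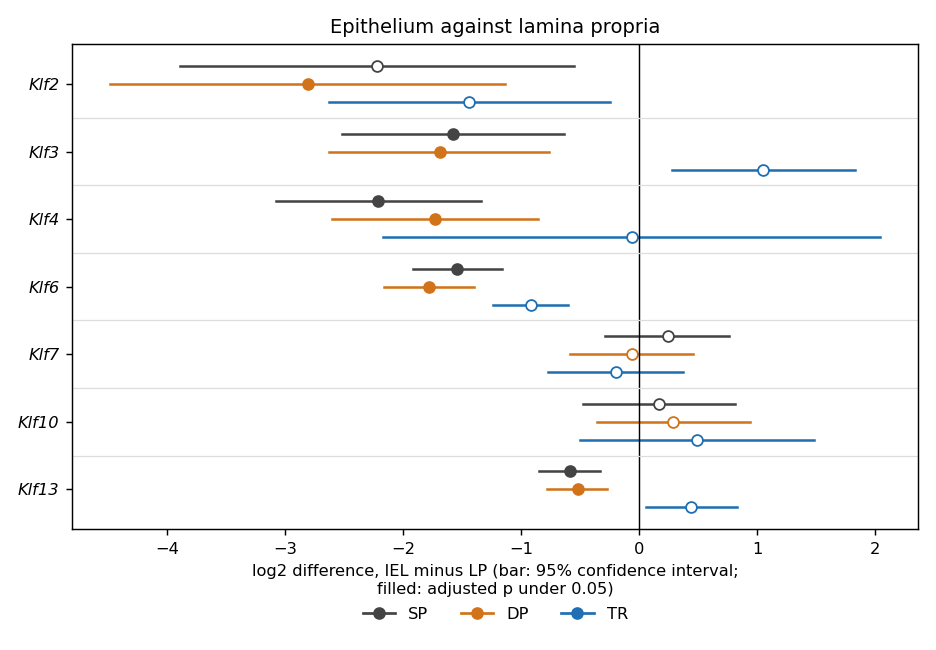
Difference of epithelium minus lamina propria (horizontal axis, log2 of normalised count + 1) for the 7 tested KLF genes in SP, DP and TR cells. Points are estimates, bars 95% confidence intervals, and filled points have an adjusted p under 0.05. Klf6 lay at -1.54, -1.78 and -0.92 in the 3 populations, whereas Klf3 lay at -1.58, -1.69 and 1.05.

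Klf7 and Klf10 were not called by site. Klf7 (ENSMUSG00000025959, chromosome 1, 64029447 to 64122282, minus strand) differed by 0.09 on average over SP and DP, with a 95% interval from -0.28 to 0.46 (adjusted p = 0.764). Klf10 (ENSMUSG00000037465, chromosome 15, 38291463 to 38300706, minus strand) differed by 0.23, with an interval from -0.23 to 0.68 (adjusted p = 0.489). These intervals do not reach the averaged difference of any called gene toward lower values in the epithelium. Klf10 was not called in any of the 14 comparisons. Its group means lay between 204.7 ± 88.7 in LP SP and 383.1 ± 222.3 in IEL TR, where library 1 stood at 639.8 and the others at 254 to 255.

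Other RNA moved with the site. A list of 15 immediate early and stress genes, which rise within minutes of stimulation or of tissue digestion, was followed. Averaged over SP and DP, 11 were lower in the epithelium and 0 higher, where 10.5% of all genes were called in each direction. The median of the 15 was -0.99. The lower ones included Atf3 (-5.46, adjusted p = 1.86e-07), Nr4a1 (-2.82, adjusted p = 6.24e-07), Dusp1 (-2.25, adjusted p = 4.13e-07) and Junb (-1.41, adjusted p = 7.32e-06). The summed level of the 15 genes was 17810 to 24340 in IEL SP and DP libraries and 37820 to 51850 in LP SP and DP libraries. In IEL TR it was 22280 to 26870 and in LP TR 22490 to 33020. Their part in the KLF differences was not tested.

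Epithelial markers moved the other way. Of 18 such genes 13 were tested. In the epithelial SP and DP libraries 6 were higher, where 10.5% of all genes were called higher, and 0 lower. The higher ones were led by Reg3b (5.85, adjusted p = 0.000191) and Fabp2 (5.12, adjusted p = 0.000438). Their summed level was 541.9 to 2240 in IEL SP and DP libraries against 212 to 519.3 in LP SP and DP libraries, where Apoa1, Apoa4, Krt19, Phgr1, Alpi and Muc2 stood at 0 in all libraries. Alpi and Muc2 stood at 0 in IEL DP as well, and none of the 18 in IEL SP. Cdh1 made up much of the lamina propria sums. Its mean was 186.7 in LP SP and 293.1 in LP DP cells, where the median sums were 348.0 and 339.1. Epithelial SP and DP cells had Cdh1 means of 314.6 and 294.4. TR cells held little Cdh1 (mean 5.46 in the epithelium, 4.79 in the lamina propria), so this gene differed by population. Which cells its RNA came from was not tested. Klf5, the KLF of intestinal crypt epithelium, had at most 11.75 in any library. Intestinal epithelium also expresses Klf4. The part of epithelial RNA in the KLF differences was not tested. Of 11 myeloid markers, 4 were tested, and 1 (Lyz2) was lower in the epithelium (-4.41, adjusted p = 0.00899), where 10.5% of all genes were. The myeloid sum was 87.4 to 126.2 in IEL SP and DP libraries and 85.7 to 462 in LP SP and DP libraries. Csf1r and S100a9 stood at 0 in both of these IEL groups, and S100a8 and S100a9 in both LP groups. Of 8 endothelial and stromal markers, from cells that also express Klf2, 2 were tested and 0 were called between the sites. Their sum was 89.9 to 146.9 in IEL SP and 182.1 to 211 in LP SP libraries, without overlap, and 91.0 to 120.9 in IEL DP and 87.6 to 146.1 in LP DP libraries. Col3a1 stood at 0 in IEL DP, LP SP and LP DP libraries, and Cdh5 in IEL SP, LP SP and LP DP libraries. The part of myeloid, endothelial and stromal RNA in the KLF differences was not tested.

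**Figure D3:**
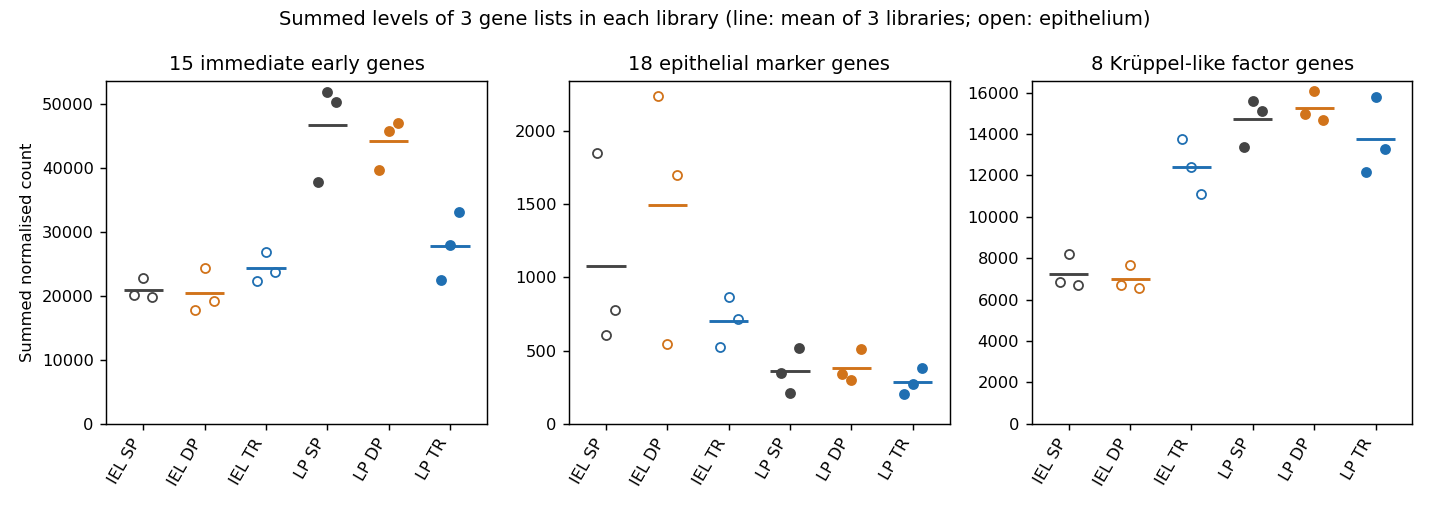
Summed normalised count (vertical axes) of 15 immediate early genes, 18 epithelial markers and the 8 KLF genes in the 6 groups. Each point is 1 library, open for the epithelium, and lines are group means. The sum over KLF genes, mostly Klf6 and Klf13, and that over immediate early genes were both lower in SP and DP cells of the epithelium. The sum over epithelial markers, Cdh1 among them, was higher there.

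The second comparison set Foxp3+ TR cells against SP cells of the same site. Averaged over the sites, Klf2 and Klf7 were higher in TR cells, 2 of the 7 tested, where 6.96% of all genes were called higher and 11.8% in either direction. In the epithelium 3 of 7 genes (Klf2, Klf3 and Klf13) were higher in TR cells, where 1.49% of all genes were. In the lamina propria 1 of 7 (Klf7) was higher, where 5.03% of all genes were. The TR and SP comparison of each site shares its SP libraries (IEL SP or LP SP) with the site comparison.

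Klf2 had its highest mean in TR cells in each site. IEL TR libraries held 172, 83.9 and 145, all above IEL SP at 17, 25.6 and 20.4. LP TR libraries held 187, 436 and 522, all above LP SP at 134, 103 and 73. The averaged difference was 2.18 ± 0.30 (adjusted p = 0.000972). It was 2.57 ± 0.38 in the epithelium (6.37-fold, adjusted p = 0.0292) and 1.79 ± 0.78 in the lamina propria (3.7-fold, adjusted p = 0.185). The second, with separate libraries, was not called by limma. DESeq2 called it (1.89, adjusted p = 0.023), with 1903 of all genes called against 1470 by limma. The change in this difference between the sites was 0.78, with an interval from -0.55 to 2.11 (adjusted p = 0.789). Group means ran in the order LP TR (382.0 ± 174.1), IEL TR (133.6 ± 45.2), LP SP (103.2 ± 30.3), LP DP (75.0 ± 58.7), IEL SP (21.0 ± 4.30) and IEL DP (13.2 ± 11.96). IEL TR, LP SP and LP DP overlapped in turn, as did IEL SP and IEL DP.

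Klf7, a factor first described for its broad expression, was higher in TR cells with little spread. In the lamina propria it stood at 356, 269 and 225 in TR and 148, 139.6 and 91.6 in SP libraries, which did not overlap. The difference was 1.16 ± 0.24 (2.24-fold, adjusted p = 0.00793). In the epithelium it stood at 257, 215 and 254 in TR and 135, 177 and 129.8 in SP libraries. These also did not overlap, but the difference of 0.72 ± 0.23 was not called by limma (adjusted p = 0.179). DESeq2 called it (0.70, adjusted p = 0.0462), with 1517 of all genes called against 450 by limma. The averaged difference was 0.94 ± 0.18 (adjusted p = 0.00559). DP libraries stood at 216, 173 and 137 in the epithelium and 172, 163 and 207 in the lamina propria, and their means lay between those of SP and TR cells in each site.

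Klf3 and Klf13 were higher in TR than SP cells of the epithelium. Klf3 stood at 312, 311 and 405 in IEL TR, all above the IEL SP libraries given earlier, a difference of 1.70 ± 0.26 (3.25-fold, adjusted p = 0.0319). In the lamina propria the order was the opposite: LP TR libraries at 208, 195 and 107 all lay below LP SP libraries, with -0.93 ± 0.44 (adjusted p = 0.227). The difference between the sites, TR minus SP in the epithelium less the same in the lamina propria, was 2.63 ± 0.39 for Klf3 (adjusted p = 0.0365). It was the 1 call among the 7 KLF genes, where 0.11% of all genes were called in that direction and 0.168% in either. Klf13 stood at 8085, 7781 and 6106 in IEL TR libraries, its highest group, and differed from IEL SP by 0.81 ± 0.12 (1.77-fold, adjusted p = 0.033). In the lamina propria TR libraries at 4941, 6328 and 4889 overlapped SP libraries, and the difference was -0.22 ± 0.12 (adjusted p = 0.309). The difference between the sites was 1.03 ± 0.22 for Klf13 and was not called (adjusted p = 0.127). In 1 fit over all 18 libraries the call moved from Klf3 (adjusted p = 0.0838) to Klf13 (0.0274), and DESeq2 called both (adjusted p = 0.00252 for Klf13). Over all genes that fit called 58 and DESeq2 192, against 26 in the main fit.

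The 3 calls in the epithelium rested on few libraries. Without IEL TR library 1 they held, at 2.36 for Klf2 (adjusted p = 0.0368), 1.76 for Klf3 (0.0374) and 0.73 for Klf13 (0.044), and the site difference of Klf3 was 2.69 (0.0328). The averaged differences were then 2.07 for Klf2 (0.00141) and 0.92 for Klf7 (0.00837). Each was lost without any 1 IEL SP library (adjusted p 0.112 to 0.137 for Klf2, 0.103 to 0.129 for Klf3 and 0.13 to 0.148 for Klf13). Klf2 was also lost without IEL TR library 3 (0.0695), Klf3 without IEL TR library 2 (0.0618) or 3 (0.0689), and Klf13 without IEL TR library 2 (0.074). All 3 were lost with no filter on low values (0.0822, 0.0785 and 0.112). The site difference of Klf3 was lost without any 1 IEL SP (0.0664 to 0.0989) or LP SP library (0.0803 to 0.114), and without LP TR library 1 (0.0728) or 2 (0.0797). The averaged calls of Klf2 and Klf7, and the Klf7 call in the lamina propria, held in every setting tried.

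Klf4 and Klf6 were not called between TR and SP cells. Klf4 differed by 1.08 in the epithelium (95% interval -0.86 to 3.02, adjusted p = 0.567) and by -1.06 in the lamina propria (interval -1.93 to -0.19, adjusted p = 0.128). The second was called without LP TR library 3 (-1.48, adjusted p = 0.0363). Klf6 differed by 0.58 in the epithelium (adjusted p = 0.174), where the 3 TR libraries lay above the 3 SP libraries, and by -0.04 in the lamina propria (interval -0.42 to 0.34). RNA of other cells also differed by population. Of 8 B and plasma cell markers, 3 were tested and 1 was higher in LP TR than LP SP, where 5.03% of all genes were. The summed level of the 8 was 101.7 to 573.3 in LP TR and 2.34 to 22.0 in LP SP, with Sdc1 at 0 in LP TR and Cd79a and Mzb1 at 0 in LP SP. In the epithelium the sum was 9.45, 109.3 and 264 in TR libraries and 2 to 27.2 in SP libraries, and Igj and Mzb1 stood at 0 in both groups. B cells express Klf2, and their part in its level was not tested in either site. The endothelial and stromal sum, from cells that also express Klf2, was lower in LP TR (77.1 to 97.4) than in LP SP (182.1 to 211). Of the 15 immediate early genes, 7 were lower in LP TR than LP SP, where 4.47% of all genes were, and 0 higher. In the epithelium 1 (Dusp1) was higher in TR than SP cells, where 1.49% of all genes were, and 0 lower. The part of these genes in the KLF values was not tested.

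**Figure D4:**
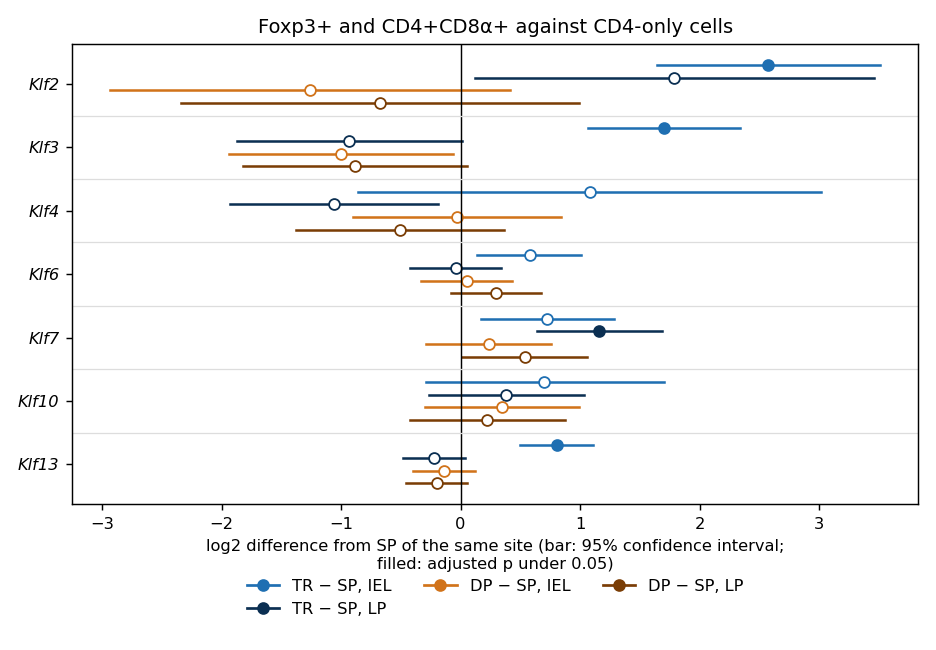
Differences of TR and DP cells from SP cells of the same site (horizontal axis, log2 of normalised count + 1) for the 7 tested KLF genes. Points are estimates, bars 95% confidence intervals, and filled points have an adjusted p under 0.05. TR minus SP was 2.57 for Klf2 and 1.70 for Klf3 in the epithelium and 1.16 for Klf7 in the lamina propria.

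The third comparison set DP cells, which gained CD8α while keeping CD4, against SP cells. With limma 0 of 7 KLF genes were called in the epithelium (0.213% of all genes were), 0 in the lamina propria (0.769%), 0 on average over the sites (1.1%) and 0 for the difference between the sites (0%, with 974 genes at an unadjusted p under 0.05 and 31 called by DESeq2). Neither edgeR nor DESeq2 called a KLF gene in these 4 comparisons. At an unadjusted p under 0.05 there was 1 KLF gene in the epithelium (Klf3, -1), where 6.58% of all genes were, and 1 in the lamina propria (Klf7, 0.54), where 9.95% were. There were 2 on average (Klf3, -0.94, and Klf7, 0.39) against 9.67% of all genes, and 0 for the difference between the sites against 6.3%. Averaged over the sites the interval was -0.10 to 0.44 for Klf6 and -0.36 to 0.01 for Klf13, and neither interval reached the averaged site difference of its gene. For Klf2 it was -2.15 to 0.21, so a sizeable decrease cannot be told apart from no change with these libraries.

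Against TR cells, DP cells of the epithelium had less Klf13 (-0.95 ± 0.12, 1.95-fold, adjusted p = 0.0159), the 1 of 7 genes called lower where 2.36% of all genes were. Without IEL TR library 1 it was -0.87 (adjusted p = 0.0268). The call was lost without any 1 IEL DP library (adjusted p 0.0803 to 0.0936) and with no filter (0.201). Klf2 (-3.83 ± 1.00, 10.1-fold, adjusted p = 0.112) and Klf3 (-2.70 ± 0.55, 5.64-fold, adjusted p = 0.0588) were not called by limma. Their DP and TR libraries were separate. DESeq2 called both (adjusted p = 0.0058 and 0.000212), as did limma in 1 fit over all 18 libraries (0.0035 and 0.000542). Over all genes DESeq2 called 1740 and that fit 2170, against 640 in the main fit. The Klf2 difference was -2.72 (adjusted p = 0.115) without IEL DP library 3, which held 1 read of the gene. In the lamina propria 0 of 7 were called with limma, where 13.2% of all genes were. There Klf2 was at -2.47 ± 0.78 (adjusted p = 0.0516, unadjusted p = 0.00691) with separate libraries, and edgeR and DESeq2 each called it (adjusted p 0.0284 and 0.00192). It was also called by limma without LP DP library 2 (0.031) or LP TR library 1 (0.0476). Over all genes edgeR called 1921 and DESeq2 2434, against 2039 by limma. Klf7 (-0.63) was the other of the 2 genes with an unadjusted p under 0.05, where 25.1% of all genes had one.

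Klf12 (ENSMUSG00000072294, chromosome 14, 99870632 to 100284679, minus strand) was barely detected. It had 15 reads over the 18 libraries, 13 of them in LP TR cells, and none in 14 libraries. Its highest value was 10.8 normalised counts, from 10 reads in LP TR library 1. A count of 0 allows up to 3 reads of the 5093955 to 8851347 in a library, for counting error only. Expression below that was not detectable at this depth.

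Genes linked to KLF2 were followed as a list of 12, of which 11 were tested. Averaged over SP and DP, 3 were higher and 3 lower in the epithelium, where 10.5% of all genes were called in each direction. The median of the 11 was -0.10 against 0.04 over all genes. The lower ones were Cd69 (-1.87, adjusted p = 6.60e-06), whose protein retains T cells in tissue, and the cell cycle inhibitors Cdkn1a (-2.06, adjusted p = 0.000107) and Cdkn1b (-0.65, adjusted p = 0.00342). The higher ones were Ccl5 (0.86, adjusted p = 1.13e-05), the chemokine gene that KLF13 activates, the integrin gene Itgb7 (0.55, adjusted p = 0.000516) and Cxcr3 (0.77, adjusted p = 0.023). S1pr1, the egress receptor, was at 22.2 against 46.1 normalised counts and was not called (-0.94, adjusted p = 0.285). In TR against SP cells, averaged over the sites, 3 were higher and 2 lower, where 6.96% of all genes were higher and 4.79% lower. The median of the 11 was 0.66. Ccr7, the lymph node homing receptor, was higher (4.21, adjusted p = 0.00553), as were Cdkn1a (0.77, adjusted p = 0.0331) and Cdkn1b (0.75, adjusted p = 0.00513). Il7r (-1.17, adjusted p = 0.00052) and Ccl5 (-6.29, adjusted p = 2.45e-08) were lower. S1pr1 was not called (0.93, adjusted p = 0.39).

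Of 11 genes that act upstream of KLFs or degrade them, 10 were tested. Averaged over SP and DP, 2 of the 10 were lower in the epithelium and 1 higher, where 10.5% of all genes were called in each direction. Foxo1, whose protein switches on Klf2, was lower in SP and DP cells of the epithelium (155.1 against 488.5 normalised counts, -1.66, adjusted p = 1.43e-05). Mef2d, which encodes a MEF2 factor, was lower too (82.3 against 243.2, -1.59, adjusted p = 0.00164), and Foxo3 was higher (0.55, adjusted p = 0.0247). In TR against SP cells 1 gene was higher, the ubiquitin ligase gene Wwp1 (1.04, adjusted p = 0.0346), and 0 were lower. That is 1 of 10, near the 6.96% of all genes called higher in this comparison. Of 10 cofactor genes, 3 were higher in the epithelium, where 10.5% of all genes were called higher, and 0 lower. They were Ep300 (0.95, adjusted p = 0.0194), Hdac2 (0.66, adjusted p = 0.0301) and Ctbp1 (0.44, adjusted p = 0.0254), whose protein is a partner of KLF3.

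The rest of the KLF and SP gene family, 18 genes of which 9 were tested, changed in few places. Averaged over SP and DP, Klf11 was lower in the epithelium (18.7 against 46.3 normalised counts, -1.31, adjusted p = 0.0485). This was 1 of the 9, close to the 10.5% of all genes called lower, and 0 were higher. Sp3, the most abundant of the 18 per kilobase (209.1), was higher in TR than SP cells on average (0.65, adjusted p = 0.00904). Klf9 was higher in LP DP than LP TR cells (273.6 against 67.5, 2.36, adjusted p = 0.00582). Sp4 was lower in LP TR than LP SP cells (116 against 262.9, -1.14, adjusted p = 0.0146).

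The genes most like each member over the 18 libraries were ranked by Pearson r of log2(normalised count + 1) among 9803 tested genes with a mean of at least 50. All points share the sites and populations that order the libraries, so r is a description. Klf6 was most like Kdm6b, a histone demethylase gene (0.962), then Cd69 (0.959) and P2ry10 (0.959). Klf7 was most like Asl (0.876), M6pr (0.844) and Emp3 (0.832). Klf13 was most like Gimap1os (0.874), Ssh2 and Rps9 (0.843 each), and Klf10 most like Meaf6 (0.828), Ap4b1 (0.826) and Was (0.82). For Klf2, Klf3 and Klf4 the nearest genes were ribosomal pseudogenes or predicted genes, namely Rpl7a-ps11 (0.931), Gm11979 (0.926) and Gm11989 (0.919) for Klf2, Rpl7a-ps3 (0.894), Gm3788 (0.867) and Rpl7a-ps5 (0.866) for Klf3, and Gm16148 (0.86), Gm5070 (0.855) and Gm14681 (0.848) for Klf4. Among the members themselves Klf3 and Klf13 were most alike (0.79), Klf2 and Klf4 each resembled Klf6 (0.69), and Klf6 and Klf10 did not move together (-0.17).

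Some members overlap other annotated genes. Klf3 overlaps Gm20033 on the opposite strand and C230096K16Rik, Klf7 overlaps Gm26649 and Gm13748 on the opposite strand, and Klf13 overlaps Gm27252 and E030018B13Rik on the opposite strand. The library kit does not mark strand, so reads of these genes cannot be told apart from those of the members where exons coincide. Klf2, Klf4, Klf6 and Klf10 overlap no other gene in GENCODE M21.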

How the data were processed

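The deposited table gives 1 signal per gene and library, called a normalised count here. Per the submitters' processing notes, TopHat and HTSeq were used with the mouse build mm10, that is GRCm38 (versions not listed), and how the factors were computed is not given in the sources used here. Per the labels' protocols, RNA was cleaned on beads and libraries were made with Nextera XT. Each signal value the authors deposited equals a count of reads times 1 factor per library, settled from the values: 100% of them were whole multiples of a step within a tolerance of 0.1 of the step. Dividing by it recovered whole reads, on which edgeR (4.0.16, quasi-likelihood test) and DESeq2 (1.42.0) were run as alternatives. Between IEL TR and IEL SP, for example, edgeR called 306 genes and limma 450. Without molecular identifiers, PCR copies cannot be told from separate molecules, so limits from a count of 0 cover counting error only.

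The members and gene lists were chosen with earlier results of these data known. Groups came from the labels. Normalised counts plus a pseudocount of 1 were taken to log2, and genes reaching 10 in 3 or more of the 18 libraries (15472) were fitted with limma 3.58.1 in R 4.3.3 (trended, robust variance, Benjamini-Hochberg adjustment). Because IEL TR was more variable, the comparisons without it used the 15 libraries of the other 5 groups, and those with it used the groups compared. There were 14 comparisons: 9 pairwise, 3 averages and 2 differences between sites. The text names the 8 members, of each list up to 4 called genes with the smallest p per comparison, and the 3 genes most like each member. Genes beyond this rule (S1pr1, Klf5, and the list genes described as not called or at 0) were chosen for their known roles, and Cdh1 for its level. Alternatives were a pseudocount of 4, no filter, TMM scaling, 1 fit over 18 libraries, a replicate block, edgeR, DESeq2 and leaving out each library. The fit was also run on simulated data with the same dispersion for all genes of a group and no effect of replicate number. Its outcome is not given here, and no result above rests on it. Start regions come from RefSeq (GRCm38.p6) and gene positions and exon lengths from GENCODE M21. The labels do not pair the libraries by replicate number, and the main fit did not pair them. No same-numbered pair of residuals correlated over 0.1, although all 18 libraries were closest to their own number. The check given with the alternatives therefore does not settle whether libraries of the same number share an effect. Some items of the lists are not reported here.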

Additional observations from a re-analysis of the deposited data

Results flagged for a closer look

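The difference between TR and SP cells in Klf3 was compared between the epithelium and the lamina propria. Klf3 was higher in TR than SP cells of the epithelium (1.70 ± 0.26) and lower, without a call, in those of the lamina propria (-0.93 ± 0.44). A test of the difference between these differences with limma gave 2.63 ± 0.39 (adjusted p = 0.0365). The 3 IEL TR libraries lay above all 3 IEL SP libraries, and the 3 LP TR libraries below all 3 LP SP libraries. The call ended in 11 of 19 alternatives, and over the 19 the difference ran from 2.33 to 2.8. It ended with no filter (adjusted p = 0.0521), in 1 fit over all 18 libraries (0.0838), with the replicate block (0.0616), without any 1 IEL SP (0.0664 to 0.0989) or LP SP library (0.0803 to 0.114), and without LP TR library 1 (0.0728) or 2 (0.0797).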

How the results depend on the processing

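No KLF value reversed its direction when called. Of 1484 values over the alternatives, 1399 kept their side of the threshold, 57 lost a call, 28 gained one and 0 reversed a call. Values without a call could change direction. For example, Klf2 for the site difference of DP against SP went from -0.59 to 0.53 without IEL DP library 3. The numbers of KLF genes called for the site average (5), the TR average (2), the SP site comparison (4) and the DP comparisons with SP (0) stayed within 1.5 times of the reported number. For IEL TR against IEL SP the 3 genes called became 0 with no filter. For IEL DP against IEL TR the 1 gene became 0 with no filter, 3 in 1 fit over all 18 libraries and 3 with DESeq2. For LP TR against LP SP the 1 gene became 2 with DESeq2. For LP DP against LP TR 0 became 1 with a pseudocount of 4, with edgeR and with DESeq2. For IEL TR against LP TR 0 became 1 with TMM scaling (Klf6, adjusted p = 0.0496), 1 in the fit over 18 libraries and 3 with DESeq2. For the site difference of TR against SP the 1 gene became 0 with no filter and 2 with DESeq2. Leaving out 1 library gave 0 to 3 genes for IEL TR against IEL SP, 1 to 2 for LP TR against LP SP, 0 to 1 for IEL DP against IEL TR and for LP DP against LP TR, 2 to 4 for IEL DP against LP DP (reported, 5), and 0 to 1 for the site difference. The cause was not tested. In the fit over 18 libraries the Klf4 calls by site were lost in SP (adjusted p = 0.0501) and DP cells (0.13), and with no filter those of Klf3 in SP (0.0547) and Klf2 in DP cells (0.0535).

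The labels do not pair libraries by replicate number. Over 45 same-numbered pairs the residuals correlated at 0.00053 to 0.0887 (median 0.0385), none over 0.1, although all 18 libraries were closest to their own number. With the replicate block, KLF calls became 0 for IEL TR against IEL SP (adjusted p = 0.135 for Klf2, 0.138 for Klf3 and 0.0975 for Klf13), 0 for IEL DP against IEL TR, 0 for the site difference of TR, 2 for LP TR against LP SP and 1 for LP DP against LP TR. The site difference of Klf3 then had an adjusted p of 0.0616. Over all genes the block gave 63 calls for IEL TR against IEL SP (450 without), 195 for IEL DP against IEL TR (640), 0 for IEL TR against LP TR (93) and 1 for the site difference of DP (0).

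Counts over all genes moved most where IEL TR was involved. IEL TR against IEL SP had 450 calls, 1517 with DESeq2, 233 with no filter, 1799 in the fit over 18 libraries and 37 to 629 without 1 library. IEL DP against IEL TR had 640, then 1740, 9, 2170 and 143 to 817. IEL TR against LP TR had 93, then 929, 0, 1008 and 0 to 159. The site difference of TR had 26, with 192 by DESeq2, 58 in the fit over 18 libraries and 0 to 73 without 1 library. DESeq2 and the fit over 18 libraries gave 111 and 17 for IEL DP against IEL SP (33, and 8 to 33 without 1 library), 354 and 60 for LP DP against LP SP (119, and 67 to 98), and 403 and 94 for DP against SP on average (170). The fit over 18 libraries gave 874 for LP TR against LP SP (1470), 862 for IEL SP against LP SP (1533, and 986 to 1238) and 847 for IEL DP against LP DP (1472, and 849 to 1067). Depth limits Klf2 in the epithelium (1 to 30 reads in IEL DP) and Klf12.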

Other observations

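Klf9, which was not among the members, had its lowest group means in TR cells. Its normalised counts were 1.05, 15.1 and 44.4 in IEL TR libraries and 16.2, 114.4 and 71.8 in LP TR libraries, against 85.1, 112.9 and 133.2 in IEL SP and 119.5, 134.4 and 134.5 in LP SP. In LP DP libraries it reached 210.3, 344.9 and 265.6. TR minus SP averaged over the sites was -2.28 and was not called with limma (adjusted p = 0.0601). Klf8 was at 74.1 in IEL TR library 3 and 0 in the other 2 IEL TR libraries. Both genes were singled out after their values were seen.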
